A study of Mus musculus with 42 samples.

Results

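The 9 genes described here mark B cells and the plasma cells that B cells become. They were taken by symbol from a fixed list (Cd79a, Cd79b, Ms4a1, Pax5, Jchain, Mzb1, Ighm, Igha and Igkc), and all 9 were found among the 49585 genes counted. Counts came from 42 libraries of total RNA in 13 groups of tissue, genotype and irradiation state. All mice were 4 weeks old, on a mixed background of 50% BALB/C and 50% C57BL6, and carried germline p53 alterations. The genotypes were p53-null (Null), p53 +/- with 1 wild-type allele (Het), and the mutant alleles AD and RP over a lost allele, p53 AD/- and p53 RP/- (AD and RP). Thymus taken 4 h after irradiation was sampled in all 4 genotypes, with 4 mice in each. Thymus without irradiation (basal) was sampled in 2 Null, 3 Het and 3 AD mice. The other 3 organs, intestine, liver and pancreas, were basal only, from 3 AD mice and 3 Null mice apiece. Basal organs that share an animal number are from the same mouse. Libraries are called by their genotype with the number of the mouse, such as Het-631. Litter, sex and radiation dose are not in the labels, and p-values measure the spread between these mice. The study set out to compare mutant p53 with absent p53 in stressed and basal tissue.

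A B cell carries an antibody in its membrane as its antigen receptor. The receptor signals through the Cd79a and Cd79b proteins, and the transcription factor Pax5 holds the cell in the B lineage. A plasma cell shuts Pax5 and Ms4a1 (the CD20 surface protein) down and secretes antibody in bulk, with Mzb1 helping to fold it in the endoplasmic reticulum and Jchain joining IgA or IgM units into the forms that are carried across epithelium. The gut wall is the main home of IgA plasma cells, while the thymus, the organ that makes T cells, also holds a small population of B cells in its medulla.

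Promoters are shown for Cd79a, a gene of the B cell receptor, and Jchain, a gene of antibody secretion, since the first was not called and the second was higher in intestine against thymus below. RefSeq promoter windows on GRCm38.p6 (250 bases before and 50 after the start) were searched for 3 of the 9 members: Cd79a, Pax5 and Jchain. The windows of the other members were not searched, and the motif results do not cover them. The capitals mark the E-box CAGGTG, a motif read by E proteins such as E2A, on either strand.
Cd79a, chr7:24897247-24897546, plus strand: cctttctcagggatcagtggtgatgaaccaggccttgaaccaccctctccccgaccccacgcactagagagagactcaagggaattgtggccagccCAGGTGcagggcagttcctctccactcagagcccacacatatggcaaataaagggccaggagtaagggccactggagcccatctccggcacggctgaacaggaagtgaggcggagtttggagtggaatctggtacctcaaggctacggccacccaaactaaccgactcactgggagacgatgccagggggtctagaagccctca
Jchain, chr5:88527848-88528147, minus strand: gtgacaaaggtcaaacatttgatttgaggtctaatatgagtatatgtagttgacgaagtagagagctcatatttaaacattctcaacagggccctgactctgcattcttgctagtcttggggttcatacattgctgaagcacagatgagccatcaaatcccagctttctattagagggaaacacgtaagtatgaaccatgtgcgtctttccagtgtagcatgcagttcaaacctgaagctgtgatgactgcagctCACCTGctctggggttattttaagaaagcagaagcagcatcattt
Counted from the RefSeq start, the E-box began 154 bases before the start of Cd79a and, as CACCTG on the other strand, just after that of Jchain. Neither window overlaps another searched motif there. These RefSeq starts are not the GENCODE gene starts given below, from which the distances differ. It was found in 20.2% of 32817 promoter windows of the same length. The octamer ATGCAAAT (1.74% of windows) and the EBF core CCCNNGGG (13.7%), searched on both strands, were in none of the 3 windows. The window of Pax5, which was not called in intestine against thymus either, is not shown and held no E-box.

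Positions are on GRCm38 with GENCODE M21 genes. The receptor genes are Cd79a (chromosome 7, 24897381 to 24902197, plus strand) and Cd79b (chromosome 11, 106311341 to 106314762, minus strand). Cd79b lies 36.7 Mb from Trp53 on the same chromosome. Ms4a1 is on chromosome 19 from 11249675 to 11266241 and Pax5 on chromosome 4 from 44524757 to 44710487, both on the minus strand. The constant region genes are Ighm (chromosome 12, 113418558 to 113422730, minus) and Igha (chromosome 12, 113254830 to 113260236, minus) of the heavy chain and Igkc (chromosome 6, 70726435 to 70726966, plus) of the kappa light chain. Jchain is on chromosome 5 from 88519809 to 88527891 and Mzb1 on chromosome 18 from 35647267 to 35649367, both on the minus strand. The annotation places Igkc inside Gm30211 on the same strand, sets antisense genes over Pax5 and Ms4a1, and puts Prob1 984 bases from Mzb1. The strand setting of the counting is not given in the sources used here, so reads of such overlapping pairs cannot be told apart.

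Library totals ran from 19861977 to 34772519 counts. Trp53 stood at 20.1 CPM (gene counts scaled to the same total in every library; SD 0.69, n = 4) in irradiated Null thymus against 30.8 in Het, 35.8 in AD and 33.5 in RP. In intestine it was 14.6 CPM in AD and 10.2 in Null, in liver 4.63 and 3.95 with overlap, and in pancreas 3.48 and 4.35, where Null was not the lower. Null libraries thus still had reads of the gene, and genotype was read from the labels. Organ markers matched the labels: 6 hepatocyte genes summed to 105758 to 136356 CPM in liver, 9 thymocyte genes to 7136 to 10724 CPM in thymus and 6 enterocyte genes to 14121 to 22072 CPM in intestine. Acinar genes of the pancreas summed to 310187 to 411533 CPM there, but also to 82040 CPM in intestine AD-702 and 49222 CPM in intestine Null-923, against 619 to 10332 CPM in the other 4 intestines. In irradiated thymus Null-604 and Het-631 stood apart from their groups in several of the 9 genes, and irradiated thymus results that changed without them are given both ways.

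The intestine held the highest levels of the genes of secreted IgA. Igha stood at 1435, 1868 and 2042 CPM in the 3 AD intestines and at 1800, 1973 and 2493 CPM in the 3 Null intestines. Its range was 38.4 to 59.8 CPM in the 8 basal thymus libraries, 0.85 to 2.46 CPM in the 6 livers and 0.046 to 0.47 CPM in the 6 pancreata. No intestine overlapped a library of another basal tissue, a gap upward found in 48.9% of all genes against liver, 60.5% against pancreas and 23.3% against thymus. Jchain followed the same order at 483 to 828 CPM in intestine and 46.8 to 62.8 CPM in basal thymus, and Igkc stood at 780 to 1388 and 96.9 to 133.9 CPM. In liver and pancreas neither passed 8.78 CPM. Mzb1 was 10.6 to 15.4 CPM in intestine, 5.27 to 10.49 CPM in basal thymus and at most 0.38 CPM in liver and 0.24 CPM in pancreas. In pancreas AD-700 and Null-923 it had no count, which allows up to 0.139 and 0.147 CPM (3 counts). These are bulk tissues, in which fewer cells of a type and less RNA per cell cannot be told apart.

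Tissues were tested in AD and Null mice by edgeR's quasi-likelihood test with Benjamini-Hochberg adjusted p-values over 24431 genes. Fold changes here use TMM scaling, whose factors (1.32 to 1.48 in intestine, 0.796 to 0.863 in liver, 0.451 to 0.526 in pancreas, 1.95 to 2.03 in thymus) make them differ from plain ratios of CPM. Without TMM the median log2 difference of all genes moved from 0.33 to 1.07 for intestine against liver, from 0.10 to 1.60 against pancreas and from -0.14 to -0.63 against thymus. All 9 genes were higher in intestine than in liver, in a comparison that called 70.5% of all genes and 42.0% as higher. The log2 fold changes were 9.58 ± 0.29 (SE) for Igha, 8.36 ± 0.52 for Jchain, 8.30 ± 0.55 for Igkc and 5.07 ± 0.31 for Mzb1, while the B cell genes lay between 2.23 for Pax5 and 2.75 for Ms4a1 and Ighm was at 2.08 ± 0.44. The genes of secretion thus differed by far more than those of the B cell surface, with an all-gene median of 0.33.

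Intestine against basal thymus split the 9 genes. In this comparison 75.0% of all genes were called, 35.3% higher and 39.7% lower. Igha (5.75 ± 0.28, adjusted p = 9.37e-14), Jchain (3.98 ± 0.46), Igkc (3.66 ± 0.48) and Mzb1 (1.32 ± 0.24) were higher in intestine, and Ighm was lower (-3.23 ± 0.44, adjusted p = 5.30e-06). Ighm, the heavy chain of IgM, stood at 16.4 to 47.9 CPM in the 6 intestines and 387 to 446 CPM in the 8 basal thymus libraries, with no overlap (47.5% of all genes lay lower without overlap). The B cell genes did not pass the test: Cd79a -0.34 ± 0.32, Cd79b -0.18 ± 0.41, Ms4a1 -0.74 ± 0.50 and Pax5 0.39 ± 0.50. With mouse as a block 7 genes were called, as Ms4a1 (-1.43 ± 0.32, adjusted p = 0.00069) and Cd79a (-0.61 ± 0.27, adjusted p = 0.0483) were then lower in intestine. The same 2 genes were called lower without TMM (-1.25 and -0.84), so their level relative to thymus depends on the fit.

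Against pancreas, where 64.3% of genes were called and 34.9% were higher, 7 of the 9 genes were higher in intestine. Igha had the largest difference of the 9 (11.21 ± 0.33), followed by Jchain (6.97 ± 0.50) and Igkc (6.93 ± 0.52). Ms4a1 (1.07 ± 0.56, adjusted p = 0.107) and Ighm (0.19 ± 0.42, adjusted p = 0.726) were not called. Ms4a1 was called with mouse as a block (1.04 ± 0.35, adjusted p = 0.0158), without intestine Null-923 (1.33) and without pancreas Null-1087 (1.85), and both Ms4a1 (2.61) and Ighm (1.74) were called without TMM. Pax5 (1.87 ± 0.59, adjusted p = 0.00994) was not called when only these groups were fitted (adjusted p = 0.0665). Liver and pancreas were both lower than thymus for all 9 genes, where 79.3% and 70.4% of genes were called, 47.7% and 38.9% as lower. The largest gap between liver and thymus was that of Ighm (-5.32 ± 0.49), and between pancreas and thymus that of Igha (-5.46 ± 0.31). The lower Pax5 of pancreas (-1.48 ± 0.62, adjusted p = 0.0389) was not called without any 1 of 7 libraries (pancreas AD-700, AD-701, Null-859 and Null-923, thymus AD-701, Null-859 and Null-923).

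Liver and pancreas held few reads of any member, and the organs differed in which members were higher. Of all genes 65.3% were called between them, 30.0% higher and 35.3% lower in liver. Igha was higher in liver (1.63 ± 0.35, adjusted p = 0.000383), at 0.85 to 2.46 CPM against 0.046 to 0.47 CPM with no overlap (35.4% of all genes lay higher without overlap). Ighm was lower in liver (-1.90 ± 0.45, adjusted p = 0.00150), at 3.91 to 5.65 CPM against 1.58 to 20.9 CPM, though the CPM overlapped. Jchain (-1.39 ± 0.53), Igkc (-1.37 ± 0.49) and Ms4a1 (-1.67 ± 0.68) were also called lower. The pancreas values were led by single libraries: AD-701 had 8.78 CPM of Igkc, 5.28 of Jchain and 20.9 of Ighm, and Null-1087 had 3.28 CPM of Ms4a1. Without pancreas AD-701 the differences of Jchain (-0.31) and Igkc (-0.52) were not called, without pancreas Null-1087 neither were those of Jchain (-1.0), Igkc (-0.83) and Ms4a1 (-0.90). The call of Ms4a1 was lost in most fits that left out 1 library of either organ, that of Jchain also without liver AD-702, Null-859 or Null-923, and with mouse as a block Jchain was not called (-1.32 ± 0.56, adjusted p = 0.0575).

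**Figure D1:**
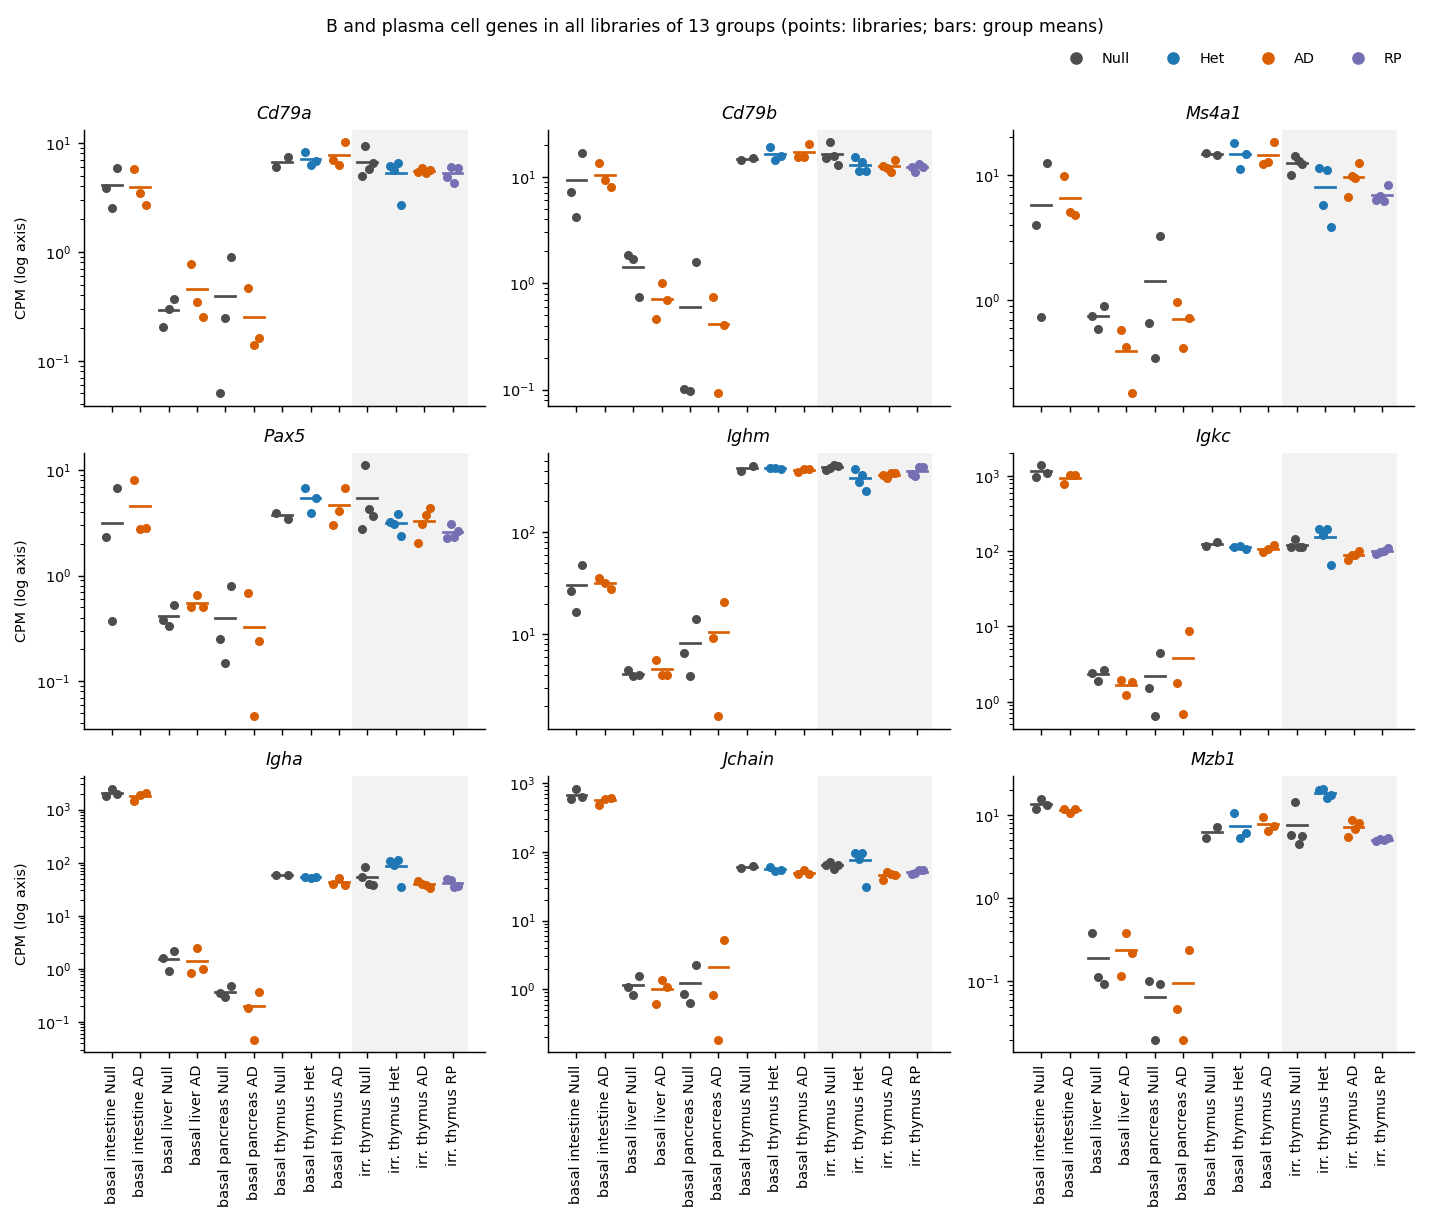
CPM (log axis) of each of the 9 genes in all 42 libraries, by group; points are libraries, bars are group means, colours are genotypes and the grey band marks irradiated thymus. Mzb1 in the 2 pancreata without a count is drawn at 0.02. Igha, Igkc and Jchain peak in intestine, Ighm in thymus, and the group means of all 9 are lowest in liver and pancreas.

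Per kilobase of exon, which lets genes be set against each other, the order of the 9 genes differed between the organs. In Null intestine the mean levels were 2177 CPM per kb for Igkc, 783 for Igha, 268 for Jchain, 16.1 for Ighm, 11.1 for Mzb1, 6.53 for Cd79b, 2.80 for Cd79a, 0.93 for Ms4a1 and 0.36 for Pax5. In basal Null thymus Igkc (237 CPM per kb) and Ighm (224) led, followed by Jchain (23.9), Igha (22.4) and Cd79b (10.2). The ratio of Igha to Ighm per kb was 40.5 (SD 11.7, n = 3) in AD intestine and 61.5 (SD 41.0, n = 3) in Null intestine, against 0.0745 to 0.10 in the basal thymus groups. Jchain exceeded Cd79a 92.4 times and 112 times in AD and Null intestine and 3.88 to 5.23 times in basal thymus. The ratio of Cd79b to Cd79a, whose products pair in the receptor, had overlapping group means of 2.16 to 2.73 in intestine and 2.24 to 2.74 in thymus.

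As shares of all heavy chain constant region counts, Igha made up 97.0% (SD 0.95, n = 3) in AD intestine and 97.3% (SD 1.26, n = 3) in Null intestine. In the 3 basal thymus groups Ighm took 75.1 to 78.0%, Igha 8.22 to 10.6% and the IgE gene Ighe 2.04 to 3.84%. In pancreas Ighm held 93.3% in AD and 90.2% in Null, and in liver 69.6% and 63.3%, from few counts. The subclass genes of IgG are close copies of one another, and shared reads may be split between them in ways the files do not show. Immunoglobulin genes of all kinds, 429 in the table, took 0.359 to 0.597% of all counts in intestine, 0.0491 to 0.115% in thymus and at most 0.00459% in liver and pancreas.

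**Figure D2:**
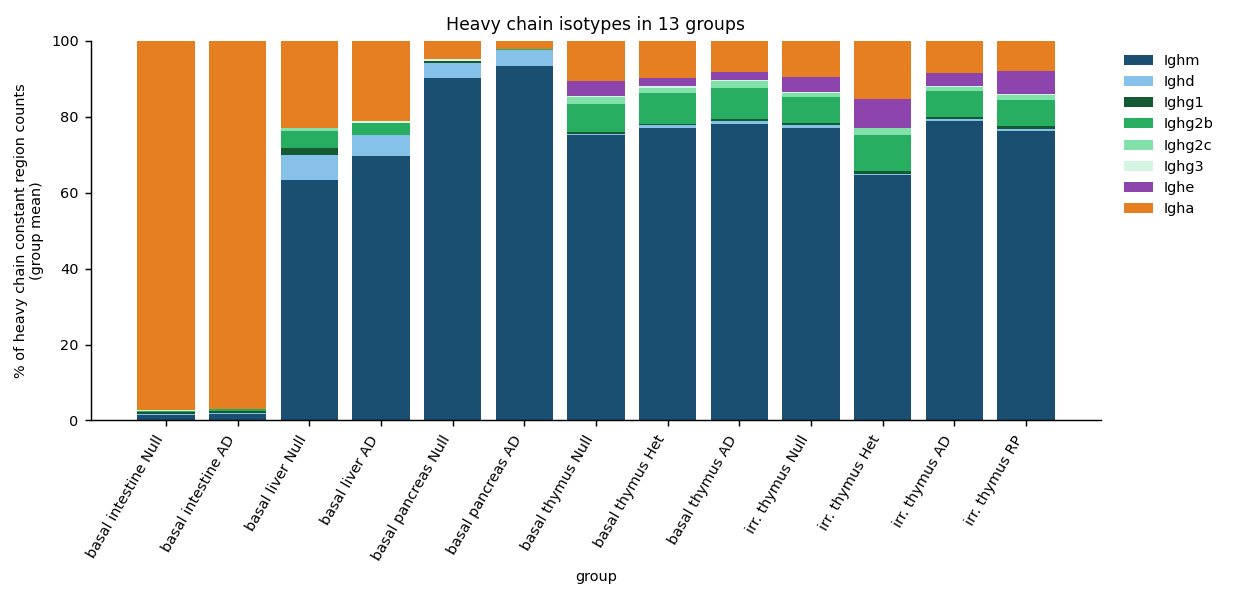
Mean share (percent) of each heavy chain constant region gene in the summed heavy chain constant region counts, for the 13 groups. The stacks show Igha at 97.0 and 97.3% in the intestines and Ighm as the leading gene everywhere else, with Ighm lowest among the thymus groups in irradiated Het thymus.

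Other lists of the B lineage differed in how many genes were called between intestine and thymus, where 35.3% of all genes were higher and 39.7% lower. Of 13 plasma cell genes 10 were higher in intestine and 1 was lower, with a median log2 fold change of 1.64 against -0.14 for all genes. They included Prdm1 (3.33 ± 0.30), the factor that starts the plasma cell program, at 16.4 CPM in Null intestine and 2.13 in basal Null thymus, and the survival receptor Tnfrsf17 (2.20 ± 0.33). Some of these genes, such as the folding factors Fkbp11 (4.26) and Txndc5 (2.76) and the syndecan Sdc1 (2.46), are also made by secretory or epithelial cells. Fkbp11 was 24.2 and 19.4 CPM in intestine AD-702 and Null-923, where acinar sums were high, and 4.11 to 6.53 CPM in the rest. Derl3, of the same list, was 13.7 and 16.7 CPM in them and 4.55 to 7.53 CPM in the rest. The part of acinar tissue in these values was not tested. Of 18 genes of the B cell surface and its signalling 5 were higher and 4 lower, and of 9 transcription factors 3 were higher and 4 lower, counts near or below the shares over all genes. Of 9 genes of survival, homing and antibody transport 5 were higher, led by Pigr (9.94 ± 0.29), the receptor that carries IgA with its J chain through the epithelium, at 3995 CPM in Null intestine and 5.76 in basal Null thymus. The chemokine Ccl28 (5.76 ± 0.29), which draws IgA plasma cells to mucosa, and the survival factors Tnfsf13 (4.75) and Tnfsf13b (3.99) were higher too.

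In no basal organ was any member called between AD and Null. The test called 0 of 9 genes in intestine (0.015% of all genes called), 0 of 7 above the low-count filter in liver (0.267%) and 0 of 4 in pancreas (0.0548%). DESeq2 called 0 in each as well, and no member had an unadjusted p under 0.05 in the 3 organs. In intestine Igha was 1782 CPM in AD (SD 313, n = 3) and 2089 CPM in Null (SD 361, n = 3), a difference of -0.13 with a 95% interval of -0.50 to 0.24. Jchain differed by -0.17 (-0.49 to 0.15) and Igkc by -0.19 (-0.53 to 0.16). The B cell genes had wide intervals, from -1.73 to 2.32 for Ms4a1 and from -1.50 to 2.76 for Pax5.

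The width came from differences between the 6 intestines that did not follow genotype. Ms4a1 was 9.90, 5.06 and 4.77 CPM in AD-702, AD-700 and AD-701 and 4.03, 0.74 and 12.4 CPM in Null-859, Null-923 and Null-1087. Null-1087 and AD-702 were thus the highest and Null-923 the lowest, with 16.8 times between the ends. This order, seen in the values and not planned, held for 5 of the 9 members (Cd79a, Cd79b, Ms4a1, Pax5 and Ighm). It held for 11 of 18 B cell surface genes and for 0 of 13 plasma cell genes. In the other lists it held for 3 of 9 transcription factors, 2 of 6 germinal centre genes and 3 of 12 constant region genes. The share of all genes with this order is not given here. Ighd, the heavy chain of the IgD of resting B cells, ran from 0.123 to 8.60 CPM. The other 4 members, Igha, Igkc, Jchain and Mzb1, were highest in Null-923 and spanned only 1.44 to 1.78 times. The acinar marker sum was 82040 CPM in AD-702, 49222 in Null-923, 10332 in Null-1087 and 619 to 9015 in the other 3. Its part in the order was not tested.

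**Figure D3:**
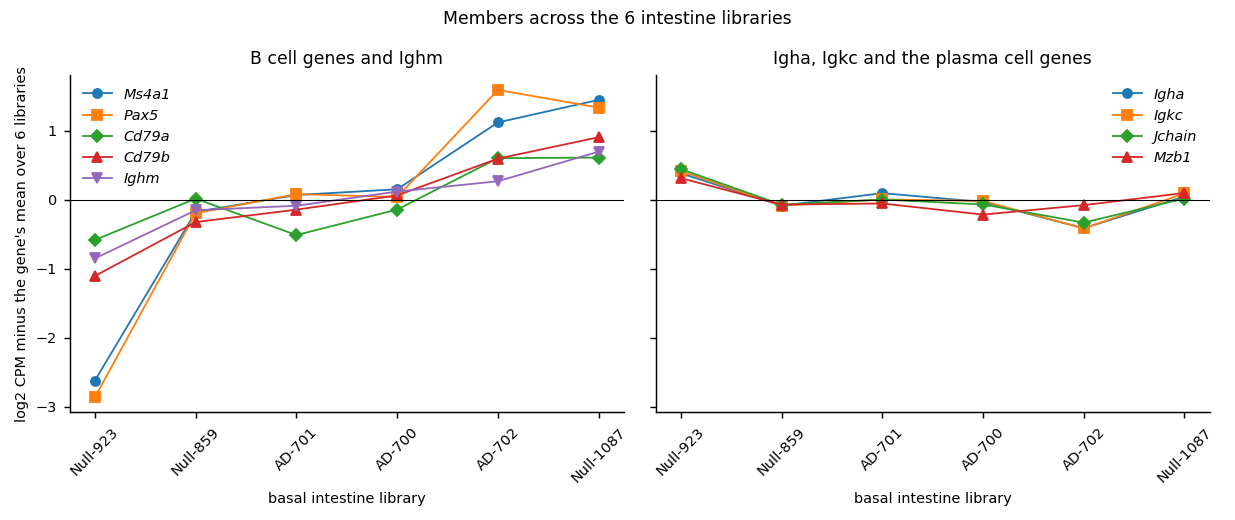
Log2 CPM of each member in the 6 basal intestine libraries, minus the member's mean over them; lines join the values of 1 gene and the libraries are in the same order in both panels. The B cell genes and Ighm are lowest in Null-923 and highest in Null-1087 and AD-702, whereas Igha, Igkc, Jchain and Mzb1 vary little and are highest in Null-923.

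Basal thymus showed no called member in any pair of genotypes. The test called 0 of 9 in Het against Null (0.0676% of all genes called), 0 in AD against Null (0.0676%) and 0 in AD against Het (0.0%). The number with an unadjusted p under 0.05 was 0, 3 and 2. Igha came nearest: it was 59.8 and 59.7 CPM in the 2 Null thymi, 54.7, 52.5 and 54.6 in the 3 Het thymi and 38.9, 50.6 and 38.4 in the 3 AD thymi. The AD values lay below all Null and all Het values, with a log2 fold change of -0.49 ± 0.10 against Null (adjusted p = 0.101) and -0.35 ± 0.09 against Het (adjusted p = 0.999), beside 4.2% of all genes that lay lower than Het without overlap. DESeq2 called the first difference (-0.48, adjusted p = 0.00542), as did the test without a low-count filter (adjusted p = 3.57e-05) or without AD-700 (-0.62, adjusted p = 0.00501). Without the filter the difference from Het was called too (-0.34, adjusted p = 0.0481). Jchain also lay lower in every AD than in every Null thymus (46.8, 54.7 and 47.1 against 57.4 and 62.8 CPM; -0.28 ± 0.09, adjusted p = 0.437). Such a gap downward was found in 11.5% of all genes in this small comparison. Cd79b went the other way and was higher in every AD than in every Null thymus (15.2 to 20.3 against 14.2 and 15.0 CPM). Nor were gaps downward particular to AD. Igha and Igkc (107.5 to 116.1 against 118.3 and 133.9 CPM) lay lower in every Het than in every Null thymus. The shares of all genes with these last gaps are not given here.

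In irradiated thymus Mzb1 was higher in Het than in every other genotype. It stood at 19.6, 20.7, 15.98 and 17.1 CPM in the 4 Het thymi (Het-594, Het-595, Het-603 and Het-631) and at 5.66, 14.3, 4.48 and 5.56 CPM in the Null thymi (Null-593, Null-604, Null-856 and Null-857). AD thymi had 5.37, 8.62, 6.72 and 7.89 CPM and RP thymi 4.79, 5.14, 4.93 and 5.25 CPM. All 4 Het values lay above every other irradiated thymus, and Null-604 was the only other library above 8.62 CPM. The log2 fold change against Null was 1.32 ± 0.28 (adjusted p = 0.00322), and without Null-604 it was 1.87 ± 0.15 (adjusted p = 1.22e-07). It was the only member called in this comparison, which called 19.2% of all genes (9.79% higher), and 7.67% lay higher without overlap. AD (-1.40 ± 0.28, adjusted p = 0.00304) and RP (-1.89 ± 0.29, adjusted p = 0.000252) were lower than Het.

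The gene next to Mzb1 had the same pattern. Prob1, which lies on the same strand 984 bases from Mzb1 and was looked at after the values of Mzb1 were seen, stood at 13.9, 17.2, 13.5 and 23.6 CPM in Het-594, Het-595, Het-603 and Het-631. The Null range was 6.10 to 7.62 CPM, the AD range 7.36 to 9.03 and the RP range 6.82 to 8.13, so Het again did not overlap the rest. Its difference from Null was 1.33 ± 0.15 (adjusted p = 3.55e-06). Null-604, high in Mzb1, was not high in Prob1 (7.62 CPM). Other genes within 50000 bases moved less: Slc23a1 by 0.47 (adjusted p = 0.0315) and Dnajc18 by 0.24 (adjusted p = 0.0244), while Paip2 (0.16) and Spata24 (0.17) were not called. Whether reads of Prob1 were counted for Mzb1 or the reverse was not tested.

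The other secretion genes were high in 3 of the 4 irradiated Het thymi and lowest in the remaining one. Igha stood at 105.7, 89.4, 111.9 and 34.9 CPM in Het-594, Het-595, Het-603 and Het-631, against 53.9, 82.8, 40.4 and 37.8 CPM in Null. Igkc was 201, 164, 195 and 66.4 CPM in the same Het thymi and 113.2 to 147.7 CPM in Null, and Jchain 95.03, 77.6, 97.0 and 31.0 against 55.9 to 69.8 CPM. Het-631 was thus the lowest of all 16 irradiated thymi for Igkc and Jchain, while its Mzb1 was not. With all libraries the differences from Null were not called: 0.72 ± 0.33 for Igha (adjusted p = 0.162), 0.41 ± 0.26 for Igkc (adjusted p = 0.321) and 0.30 ± 0.26 for Jchain (adjusted p = 0.478). Without Het-631 all 3 were called, at 0.98 ± 0.25 (adjusted p = 0.0132), 0.67 ± 0.12 (adjusted p = 0.000615) and 0.56 ± 0.10 (adjusted p = 0.000722).

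Het-631 also differed in markers of other cells. Its summed erythroid markers were 2082 CPM, the highest of the 4 Het thymi (593.1 to 2082), and its summed macrophage (537), neutrophil (33.1) and thymocyte (8567) markers were the lowest. All 8 macrophage genes and all 6 thymic epithelial genes had a fold change above 0 in Het against Null, with 1 and 3 of them called; the epithelial sum was 1088 to 1220 CPM in Het and 708 to 772 CPM in Null. The 6 erythroid and the 6 neutrophil genes were all above 0 as well, with 0 called, beside 9.79% of all genes called higher. The 5 cytotoxic lymphocyte genes summed to 50.7 to 609 CPM in Null, highest in Null-604, and to 21.9 to 38.9 CPM in Het, with 3 of them called lower. The part of these cells in the differences was not tested.

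The B cell genes and Ighm had fold changes below 0 in Het thymus when all libraries were used. Pax5 differed from Null by -0.76 ± 0.36 (adjusted p = 0.155), Ms4a1 by -0.57 ± 0.28 (adjusted p = 0.179), Ighm by -0.31 ± 0.12 (adjusted p = 0.0861) and Cd79a and Cd79b both by -0.29. None was called and all overlapped Null. Ms4a1 was 11.4, 5.76, 11.1 and 3.86 CPM in Het-594, Het-595, Het-603 and Het-631 and 10.1 to 14.3 CPM in Null. Without Null-604 Pax5 was at -0.13, Cd79a at -0.06 and Cd79b at -0.11, and without both Null-604 and Het-631 Pax5 was at 0.01, Cd79a at 0.18, Cd79b at -0.03, Ms4a1 at -0.23 and Ighm at -0.17. The direction for Pax5 and Cd79a thus depended on these libraries. Ighm was called without Het-594 (-0.43, adjusted p = 0.00915). Of the 9 members 4 lay above 0, with a median of -0.29 against -0.01 for all genes.

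With all libraries, AD and RP irradiated thymus both had fold changes below 0 against Null for all 9 members, with none called. Without Null-604, which was high in several members, Mzb1 lay above 0 in AD (0.47 ± 0.15, adjusted p = 0.652) and close to 0 in RP (-0.02 ± 0.15), and Cd79a was at -0.04 in AD and -0.10 in RP. The median was -0.37 in AD and -0.35 in RP, against -0.01 and -0.02 for all genes; both use the same Null libraries, and the B lineage was known from earlier results of these data to lean this way. Calls were rare in general, at 0.027% of all genes in AD against Null and 0.0315% in RP against Null, 1 and 3 members had an unadjusted p under 0.05, and DESeq2 called 0 in both. Pax5 differed by -0.72 ± 0.36 in AD and -1.07 ± 0.36 in RP, but without Null-604, whose Pax5 was 11.1 CPM against 2.76 to 4.29 in the other Null thymi, by -0.09 ± 0.24 and -0.44 ± 0.24. Ms4a1 in RP differed by -0.83 ± 0.28 (adjusted p = 0.772) with Null-604 and by -0.74 ± 0.31 without it. Ms4a1 stood at 6.28, 6.82, 6.22 and 8.27 CPM in RP, below all 4 Null thymi (10.1 to 14.3 CPM). Jchain was 38.2 to 51.0 CPM in AD and 46.9 to 54.8 CPM in RP, both below the Null range of 55.9 to 69.8 CPM. In AD Jchain, Igkc and Ighm did not overlap Null, and in RP Jchain, Igkc and Ms4a1 did not; 2.95% and 2.54% of all genes lay lower without overlap.

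Against Het, Mzb1 and Igha were lower in both mutants. In AD against Het, where 14.0% of all genes were called and 8.27% were lower, Mzb1, Igha (-1.18 ± 0.34, adjusted p = 0.0335) and Igkc (-0.87 ± 0.26, adjusted p = 0.0414) were lower, and Jchain was not called (-0.77 ± 0.26, adjusted p = 0.0639). In RP against Het (18.7% called, 10.2% lower) Mzb1 and Igha (-1.07 ± 0.34, adjusted p = 0.0408) were lower, and Igkc was not called (-0.67 ± 0.26, adjusted p = 0.0962). Without Het-631 Igha, Igkc and Jchain were called lower in both, at -1.44, -1.13 and -1.04 in AD and -1.34, -0.93 and -0.85 in RP. Leaving out any other library of the groups compared ended the calls of Igha and Igkc, so these rest on few libraries. Between AD and RP 0 members were called (0.0% of all genes), DESeq2 called 0, and 0 had an unadjusted p under 0.05. The nearest member was Mzb1, higher in every AD than in every RP thymus (0.49 ± 0.29, 95% interval -0.08 to 1.05, adjusted p = 0.763), and 4.85% of all genes lay higher without overlap.

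**Figure D4:**
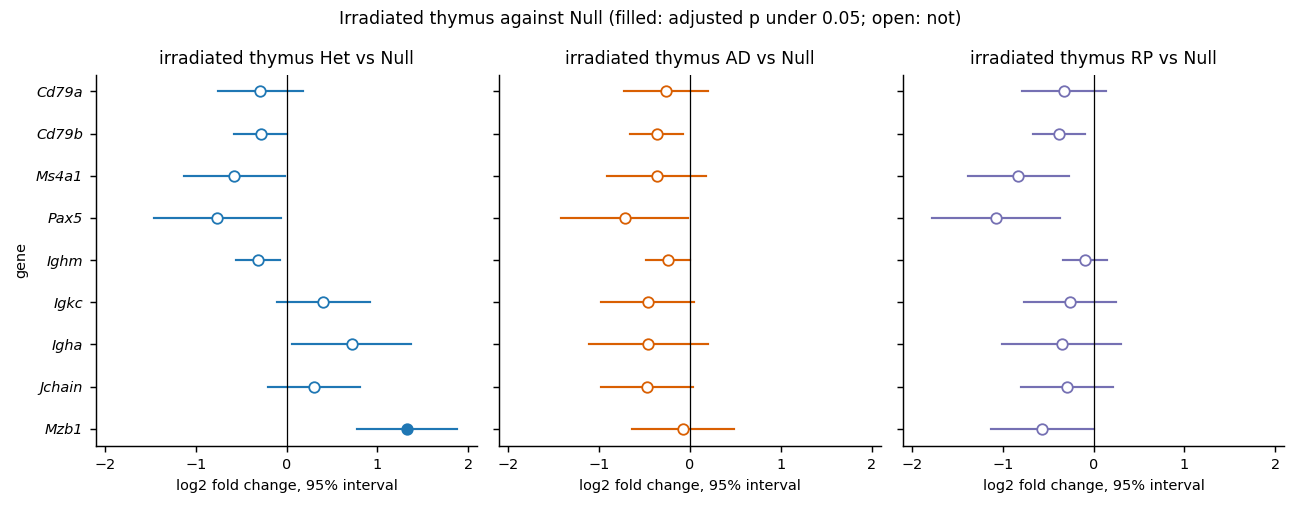
Log2 fold change (dots) with 95% interval (bars) of the 9 genes in irradiated Het, AD and RP thymus against irradiated Null thymus; filled dots have an adjusted p under 0.05. Only Mzb1 in Het is filled, at 1.32, and all 9 dots lie left of 0 in AD and RP with all libraries; without Null-604 Mzb1 in AD is at 0.47.

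Set against basal thymus of the same genotype, irradiated Het thymus had higher Mzb1 and lower Ms4a1. Mzb1 rose from 10.49, 5.27 and 6.13 CPM in the 3 basal Het thymi to the 15.98 to 20.7 CPM given above (1.33 ± 0.32, adjusted p = 0.00528). Ms4a1 fell from 18.1, 11.2 and 14.9 CPM to 3.86 to 11.4 CPM (-0.86 ± 0.28, adjusted p = 0.0425), a call lost without irradiated Het-631 (-0.62, adjusted p = 0.0909) or Het-595 (adjusted p = 0.119) and without basal Het-703 (adjusted p = 0.193) or Het-855 (adjusted p = 0.0906). These 2 of 9 stood beside 16.8% of all genes called, 8.74% higher and 8.09% lower. The CPM of Ms4a1 overlapped between the states. Pax5 was lower without overlap, at 2.39 to 3.81 CPM in irradiated and 3.95 to 6.83 CPM in basal Het thymus, but was not called. The share of all genes with such a gap is not given here. Without Het-631 Igha (0.94, adjusted p = 0.00972), Igkc (0.74, adjusted p = 8.66e-05) and Jchain (0.70, adjusted p = 3.59e-05) were also called higher. Prob1 again moved with Mzb1 (1.28 ± 0.17, adjusted p = 4.15e-06).

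Irradiated and basal thymus did not differ in a called member in Null (0.131% of genes called) or AD (0.546%). In Null no member had an unadjusted p under 0.05, and Ms4a1 was 10.1 to 14.3 CPM after irradiation and 14.6 and 15.1 CPM in basal mice, a gap downward found in 5.03% of all genes. In AD all 9 fold changes were below 0 and 3 had an unadjusted p under 0.05. Cd79b was 11.2 to 14.3 CPM in irradiated AD and 15.2 to 20.3 CPM in basal AD thymus, without overlap (-0.47 ± 0.15, adjusted p = 0.205). Cd79a (-0.53 ± 0.24) and Ighm (-0.19 ± 0.12) did not overlap either, beside 4.81% of all genes.

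Whether the response to irradiation itself differed between genotypes was tested by interaction terms. No member was called in Het minus Null (3.44% of genes), Het minus AD (3.98%) or AD minus Null (0.0%), and 2, 2 and 1 members had an unadjusted p under 0.05. DESeq2 called Mzb1 in Het minus AD (adjusted p = 0.0306). In edgeR its estimates were 1.10 ± 0.47 in Het minus Null (adjusted p = 0.256) and 1.5 ± 0.44 in Het minus AD (adjusted p = 0.0628). Without Null-604 the first was called (1.65 ± 0.31, adjusted p = 0.00205), and without Het-631 Igkc (0.82) and Jchain (0.67) were called in Het minus Null. In Het minus AD edgeR called Mzb1 without basal Het-703 (1.85, adjusted p = 0.0270). Without Het-631 Igha (1.10), Igkc (1.07) and Jchain (0.86) were called in Het minus AD. For Mzb1 the call in Het minus Null therefore depended on Null-604, and that in Het minus AD on the tool and on the libraries used.

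**Figure D5:**
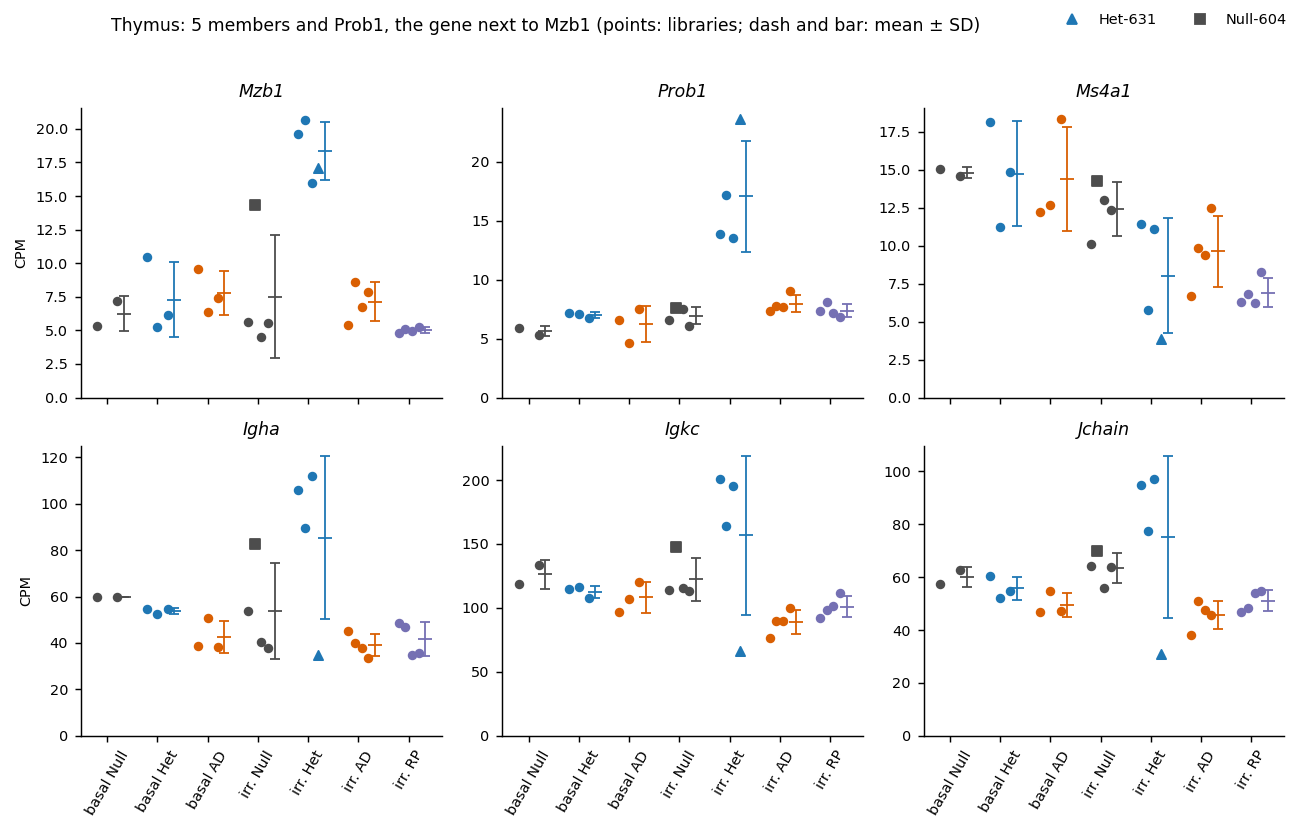
CPM of Mzb1, its neighbour Prob1, Ms4a1, Igha, Igkc and Jchain in the 24 thymus libraries by group; points are libraries, dashes and bars are mean ± SD, the triangle is Het-631 and the square Null-604. All 4 irradiated Het points are above the other groups for Mzb1 and Prob1, and Het-631 lies below its group for Igha, Igkc and Jchain.

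Mean shares of Igha and Ighm in heavy chain counts of irradiated Het thymus stood apart from the other thymus groups, given here as values without a test. Igha made up 15.5% (SD 3.28, n = 4) there, against 8.08 to 10.6% as means of the other 6 thymus groups, and Ighm 64.6% (SD 9.17), against 75.1 to 78.9%. Single libraries overlapped, with Igha at 10.7 to 18.2% in irradiated Het and 6.99 to 13.5% in irradiated Null thymus. In Het-631 Ighm held 78.0% (95% Wilson interval 77.1 to 78.9, counting error only), within the range of the other groups. Ighe took a mean of 7.40% in irradiated Het thymus (SD 2.70, n = 4, from 4.31 in Het-631 to 10.51 in Het-595) and 2.09% in basal Het thymus (n = 3). In irradiated RP thymus its mean was 5.97% (n = 4, 4.92 to 8.11%), within the range of irradiated Het. Ighe was called higher after irradiation in Het (1.85 ± 0.46, adjusted p = 0.00976). It was not called against irradiated Null (0.88 ± 0.46, adjusted p = 0.215), where its share ran from 2.101 to 6.72%, nor in the interaction with Null (1.81, adjusted p = 0.172).

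Other lists were read for irradiated Het against Null thymus beside the 19.2% of all genes called (9.79% higher). Of 12 constant region genes, 9 transcription factors and 5 germinal centre genes tested, 0 were called. Of 18 surface genes Cd81, a membrane protein that many cell types carry, was higher (0.67 ± 0.08, adjusted p = 4.52e-06) and the survival receptor Tnfrsf13c lower (-1.11 ± 0.30, adjusted p = 0.0135), with a list median of -0.27. Of 13 plasma cell genes Eaf2 was higher (0.55 ± 0.17, adjusted p = 0.0298) and 0 were lower, with a median of -0.07. Of 9 survival, homing and transport genes 4 were higher: the cytokine Il6 (1.83 ± 0.36, adjusted p = 0.00135), Cxcl12 (0.68 ± 0.12), which holds plasma cells in their niche, Ccl25 (0.53 ± 0.09) and Tgfb1 (0.26 ± 0.07). Il6 was low, at 2.0 CPM in Het and 0.57 in Null. In AD against Null and in RP against Null 0 genes of any of these lists were called.

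Variable segments are the parts of antibody genes that differ between B cell clones. In each intestine, from 15485 to 24609 heavy chain V counts, 107 to 111 heavy chain V segments had at least 3 counts, 11 to 17 of them held 50% of the counts and the most used one took 5.98 to 10.02%. In thymus, from 974 to 3400 counts, 64 to 99 segments reached 3 counts and the most used took 4.03 to 9.82%, with Het-631 the library of 64 segments and 974 counts. The number of segments seen moved with these totals. Neither organ was thus led by a single segment. V segments are a family of close copies, so shares of single segments are uncertain.

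The genes whose pattern over the 13 group means was most like that of Cd79a or Jchain were ranked by Pearson correlation of log2 CPM (pseudocount 0.5) over 18696 genes, as a description. The tissues dominate these values, so any gene high in thymus or in intestine ranks near the top. Outside the members Cd79a was nearest to Napsa (r = 0.996), followed by Fzr1, Havcr2, Plk1 and Siglech. Among the members it was nearest to Cd79b (0.987), Pax5 (0.977) and Ms4a1 (0.974), and furthest from Igha (0.757). Jchain was nearest to a fellow member, Igkc (0.999), and Igha was at 0.985. Outside the 9 members the nearest genes to Jchain were 4930539E08Rik (0.998), Slc28a2, Aktip, Bcl2l15 and the lambda variable segment Iglv1. Within the 16 irradiated thymi, after group means were taken out, Jchain still ran with Igkc (0.970) but little with Mzb1 (0.248). These libraries share depth and organ composition, and single libraries such as Het-631 weigh heavily in them.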

How the data were processed

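RNA-seq of 42 libraries was used as raw read counts per gene, deposited by the authors as a single table. STAR 2.6.0b, GRCm38 and DESeq2 are named in the submitters' processing notes; the counter, its strand setting and the annotation release are not given in the sources used here. Of 49585 Ensembl gene IDs 49326 were matched to GENCODE M21 symbols. Groups came from the labels. The count columns of the 8 basal thymus libraries name no tissue and no irradiation. Each was assigned as the only column left for its animal. Levels are CPM (count over library total), and per kb they are divided by exonic length. Differences were tested with edgeR 4.0.16 (quasi-likelihood, robust, filterByExpr, TMM) in R 4.3.3, fitted over all genes of each tissue set and adjusted by Benjamini-Hochberg, with an adjusted p under 0.05 as the call. Errors are SE and 95% intervals are 1.96 SE. Fits were tested on simulated data with genes changed by known folds. In intestine AD against Null 11.9% of 1.5-fold, 67.2% of 2-fold and 97% of 4-fold changes were recovered, so small differences there could be missed. In irradiated thymus Het against Null the shares were 61.2%, 89.6% and 100%. Of 135 calls in the simulated intestine comparison and 185 in the thymus one, 18 each were of unchanged genes. Both shares were above the 0.05 set for the call. In the simulated intestine against thymus 5 of 166 calls were of unchanged genes. Alternatives were DESeq2 1.42.0, RLE scaling, no filter, immunoglobulin genes left out of scaling, only the groups compared, sex and mouse terms, and each library left out. Leaving out both Null-604 and Het-631, and scaling by library size alone, were added after seeing the data. The members and lists were chosen with earlier results of these data known, and named genes are the 9 members plus called genes of the lists. Basal organs of 1 animal number came from 1 mouse. Over 33 such pairs the correlation of deviations from group means had a median of 0.0754 (-0.172 to 0.359).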

Additional observations from a re-analysis of the deposited data

Results flagged for a closer look

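Among 36 sets of 4 libraries (a gene in an irradiated thymus group), 2 had a library far from the rest. This is near the number that chance alone gives, about 1 in 20. Both were irradiated thymus Null-604, at 14.3 CPM of Mzb1 and 147.7 CPM of Igkc. The other 3 Null thymi had 4.48 to 5.66 CPM of Mzb1 and 113.2 to 115.4 CPM of Igkc. Null-604 also had the highest cytotoxic marker sum of its group (609 CPM), and the part of those cells was not tested.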

How the results depend on the processing

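Of 967 alternative values of the 52 member differences called, 901 kept their call, 66 lost it and 0 changed direction. Called members under single alternatives were as follows. Without the low-count filter 1 was called in AD against Het, RP against Het and irradiated against basal Het, and 1 in basal thymus AD against Null and AD against Het. With only the groups compared it was 1 in AD against Het, RP against Het and irradiated against basal Het, and 3 in liver against pancreas. DESeq2 called 1 in basal AD against Null and 1 in the response of Het minus AD. Without both Null-604 and Het-631, 4 were called in Het against Null, RP against Het, irradiated against basal Het and the responses of Het minus Null and Het minus AD, and 2 in irradiated against basal AD. By library size alone 3 were called in liver against pancreas.

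Leaving out 1 library gave 1 to 4 called in Het against Null, AD against Het, RP against Het and irradiated against basal Het, 0 to 1 in basal AD against Null, 0 to 2 in Het minus Null, 0 to 3 in Het minus AD, 7 to 8 in intestine against pancreas, 5 to 6 in intestine against thymus, 3 to 5 in liver against pancreas and 8 to 9 in pancreas against thymus. With the mouse as replicate block 9 were called in intestine against liver, 8 against pancreas, 7 against thymus and 4 in liver against pancreas, and the call changed for no member beyond those given in the report. The cause of these changes was not tested. In liver and pancreas several members fell below the low-count filter from low levels, at library totals that in liver were like those of thymus.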

Other observations

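In some pancreata and 1 liver a single pair of variable segments took a large share of V counts, seen in the values and not planned. In pancreas AD-701 Ighv11-2 (chromosome 12, 114048241 to 114048812) held 54 of 123 heavy chain V counts, 43.9% (95% Wilson interval 35.4 to 52.7), and Igkv14-126 (chromosome 6, 67896172 to 67896642) held 117 of 218 kappa V counts, 53.7% (47.0 to 60.2). In pancreas AD-702 the shares were 43.8% (30.7 to 57.7) and 31.3% (21.5 to 43.2), and in liver AD-701 25.7% (14.2 to 42.1) and 16.7% (6.68 to 35.9). Pancreas Null-859 had 22.2% (9.0 to 45.2) and 12.8% (5.6 to 26.7), from 18 and 39 counts, and pancreas Null-1087 had 3.57% and 5.38%. Pancreas AD-700 and Null-923 had 0 of 3 and 0 of 8 heavy chain counts and 15.0% and 11.8% of 20 and 17 kappa counts. The other 5 livers had 0 to 4.26% and 0 to 1.89%. In thymus the pair held 1.83 to 6.41% and 2.13 to 7.63%, and in intestine 0.108 to 3.01% and 0.196 to 0.778%. This pair is known from B-1a cells, a self-renewing B cell population of the body cavities. The intervals cover counting error only, and few counts stand behind the liver values.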
